A study of Mus musculus with 15 samples.

Results

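Cytosolic ribosomal protein genes were examined in bulk RNA sequencing of the rostral ventrolateral medulla (RVLM), the brainstem region whose neurons drive sympathetic outflow. Members were all protein-coding genes of the deposited count table whose symbol was Rpl or Rps followed by a number and at most 1 letter, with Rplp0, Rplp1, Rplp2 and Rpsa added. The rule found 80 genes of 55421 in the table, 49 of the large and 31 of the small subunit, and used no measured value. The study asked what loss of the prorenin receptor (PRR, gene Atp6ap2) in the RVLM does in deoxycorticosterone acetate (DOCA)-salt hypertension, a model in which a mineralocorticoid pellet and salt water raise blood pressure.

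A cytosolic ribosome is built from a small subunit, which decodes mRNA, and a large subunit, which joins amino acids. Most of the proteins are present in the same copy number, apart from those of the acidic stalk, and the genes are known for being expressed together. Their mRNAs begin with a tract of pyrimidines, the TOP motif, through which mTOR signaling sets how strongly they are translated, and the introns of many of them carry small nucleolar RNAs (snoRNAs), which guide chemical changes of ribosomal RNA. In brain, ribosomal protein mRNAs are found in all cell types, and in neurons also in axons and dendrites.

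All mice carried floxed Atp6ap2, with loxP sites around exon 2, and received an adeno-associated virus (AAV, serotype 2) into the RVLM. DOCA-CRE mice (3 libraries) received AAV-CRE-GFP, were therefore PRR RVLM-Null, and then had a 50 mg DOCA pellet with 0.15 M NaCl as their drinking water for 13 days. DOCA-WT mice (4 libraries) received AAV-GFP and the same DOCA-salt regimen, so "WT" means a control virus in floxed mice. Baseline-CRE mice (4 libraries) received AAV-CRE-GFP and Baseline-WT mice (4 libraries) AAV-GFP, and their tissue was taken 3 weeks after the virus without DOCA-salt. Mice were 12 to 14 weeks old at the start, and the labels call them female, although the genotype of baseline mice is written f/y and that of DOCA mice f/f. The virus used a CMV promoter and so was not limited to 1 cell type. For DOCA-salt mice the study's methods give at least 3 weeks between the virus and the pellet, so their tissue was taken later after the virus. Baseline mice were a separate cohort, so cohort, time after the virus and DOCA-salt cannot be told apart in any comparison of DOCA with baseline. Each library came from a bilateral tissue punch with many cell types, and fewer cells of a type and less RNA per cell cannot be told apart in it. The sources used here do not say whether each library was 1 mouse, and if mice were pooled or split, p-values measure only the spread between these samples.

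Libraries held 19053970 to 30504796 counts. Mitochondrial ribosomal RNA took 4.80%, 3.32% and 19.1% of counts in DOCA-CRE and 2.42% to 5.84% in DOCA-WT, against 20.3% to 25.5% in Baseline-CRE and 20.7% to 28.8% in Baseline-WT. The targeted gene Atp6ap2 stood at 90.2, 89.6 and 145 CPM (counts scaled per library by size and TMM factor) in DOCA-CRE, against 134 to 154 CPM in DOCA-WT, and at 106 to 126 CPM in Baseline-CRE, against 114 to 139 CPM in Baseline-WT. The third DOCA-CRE value goes against its label, and that sample is called the library labelled DOCA-CRE replicate 3. The baseline ranges overlap, and the study also found no difference in PRR expression at baseline. The name PRR RVLM-Null here therefore stands for the Cre virus, not for a measured loss. Groups follow the labels, while the study's supplementary methods give the sizes of the DOCA groups the other way round, so which DOCA libraries are PRR RVLM-Null rests on the labels. Sex-linked genes gave a male pattern in 6 libraries and a female pattern in 9. Markers differed by cohort as well: all 4 serotonergic neuron genes were higher in DOCA-WT than in Baseline-WT (summed level 116 to 304 CPM against 2.77 to 10.6 CPM), and 4 of 5 red blood cell genes were lower (13.7 to 20.7 CPM against 39.7 to 82.6 CPM). Of 6 genes of C1 neurons, 4 were higher in DOCA-WT (196 to 351 CPM against 147 to 184 CPM), and Pnmt, their defining enzyme, was at 0 in 4 libraries. Of 5 neuronal genes 2 were higher (4019 to 4841 CPM against 3575 to 4143 CPM), among them Syt1 (log2 difference 1.49), whereas Stmn2 (-0.27) and Tubb3 (-0.49) were not called. Of 5 astrocyte genes only Gfap was higher (2.09), and 0 of 5 oligodendrocyte genes were called (edgeR). All 4 motor neuron genes lay below 0 with 0 called (46.3 to 868 CPM in DOCA-WT, against 901 to 1296 CPM). Olig1 of oligodendrocyte precursors, P2ry12 of microglia and Acta2 of smooth muscle were lower, and Kl of choroid plexus was higher. Between DOCA-CRE and Baseline-CRE, 2 of 4 serotonergic genes were higher (13.7 to 91.5 CPM against 2.18 to 16.2 CPM). There 2 of 5 red blood cell genes were lower (23.4 to 36.1 CPM against 41.6 to 59.1 CPM). In that comparison 1 of 6 C1 and 1 of 5 oligodendrocyte genes were higher, and 0 of 5 neuronal and 0 of 5 astrocyte genes were called. All 4 motor neuron genes lay above 0 there, with 0 called.

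Of the 80 members, 78 passed the filter of more than 1 CPM in at least 1 library, and 77 did so in every library. Rpl3l, the striated-muscle paralogue of Rpl3, passed in 1 library alone, at 1.58 CPM in the library labelled DOCA-CRE replicate 3. The members that did not pass were Rpl10l and Rpl39l, testis-expressed paralogues of Rpl10 and Rpl39 that are known to act when the X chromosome is silent in male germ cells. Each was above 0 in 8 libraries, and 3 counts correspond to 0.105 to 0.244 CPM at these depths. Members lie on most chromosomes, with 14 on chromosome 7, and 4 are X-linked: Rps4x, Rpl10, Rpl36a and Rpl39. Between genes, levels were compared as CPM per kilobase of exon. That length joins the exons of all annotated transcripts of a gene and can exceed its mRNA, so the order depends on the annotation. By mean CPM over all libraries, Rpl4 (358) stood above Rplp1 (254), and Rpsa (377) above Rps23 (210). Rplp1, of the acidic stalk that recruits translation factors, was the highest large-subunit member on the scale per kb, at 509, ahead of Rpl36 at 279 and Rpl19 at 225 CPM per kb. Rps23, which sits at the decoding center, led the small subunit on that scale at 166 CPM per kb, and Rps27l, a p53-induced paralogue of Rps27, was its lowest member at 8.32 CPM per kb. Rpl3l stood at 0.337 CPM per kb, the lowest of the members past the filter.

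Within 29 of the members lie 56 snoRNA genes, and 3 of these snoRNAs are shown because Snora21 had the lowest log2 difference in DOCA-WT and the others lie in Rps3, the member with the lowest. Rps3 (chromosome 7, minus strand, GRCm38) carries Snord15b at chr7:99479563-99479707 and Snord15a at chr7:99482785-99482932, both of the box C/D class that guides 2'-O-methylation. In the annotation Snord15b lies wholly within an exon of a retained-intron transcript of Rps3 and in no exon of its coding transcripts, whereas Snord15a is intronic. Snora21, of the H/ACA class that guides pseudouridylation, lies in an intron of Rpl23 at chr11:97781639-97781775 on the minus strand and had the lowest log2 difference in DOCA-WT of the snoRNAs inside members. Sequences are from the Gencode vM21 transcripts and read 5′ to 3′. Capitals mark box C (TGATGA) and box D (CTGA) in Snord15b and Snord15a, and the ACA box in Snora21.
Snord15b: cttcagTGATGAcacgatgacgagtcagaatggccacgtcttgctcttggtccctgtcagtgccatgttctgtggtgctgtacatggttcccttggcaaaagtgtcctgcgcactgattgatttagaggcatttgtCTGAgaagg
Snord15a: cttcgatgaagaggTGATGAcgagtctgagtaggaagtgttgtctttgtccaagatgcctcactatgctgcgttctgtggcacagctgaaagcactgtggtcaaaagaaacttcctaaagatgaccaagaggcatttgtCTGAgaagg
Snora21: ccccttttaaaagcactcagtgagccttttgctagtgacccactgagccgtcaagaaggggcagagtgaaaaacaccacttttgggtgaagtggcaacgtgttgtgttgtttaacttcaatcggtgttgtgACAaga

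Taken as a share of protein-coding counts, ribosomal protein genes were lower in the DOCA libraries than at baseline in most samples. The share was 0.782%, 0.739% and 0.940% in DOCA-CRE and 0.729%, 0.792%, 0.8291% and 0.861% in DOCA-WT. It was 0.891%, 0.956%, 0.974% and 1.03% in Baseline-CRE and 0.828%, 0.827%, 1.01% and 1.19% in Baseline-WT. DOCA-CRE overlapped Baseline-CRE through the library labelled DOCA-CRE replicate 3 alone, and DOCA-WT overlapped Baseline-WT through DOCA-WT replicates 3 and 4 and Baseline-WT replicates 1 and 2. Means were 0.821% ± 0.106 in DOCA-CRE (SD, n = 3), against 0.962% ± 0.0565 in Baseline-CRE (SD, n = 4), and 0.803% ± 0.0565 in DOCA-WT, against 0.964% ± 0.175 in Baseline-WT (SD, n = 4 each). Without the library labelled DOCA-CRE replicate 3, the DOCA-CRE mean was 0.761%. The order turned round when all counts were the denominator, with means of 0.680% in DOCA-CRE and 0.645% in Baseline-CRE, and of 0.723% in DOCA-WT and 0.627% in Baseline-WT. That denominator includes mitochondrial ribosomal RNA, which was lower in the same DOCA groups. In the library labelled DOCA-CRE replicate 3 it was only slightly lower, at 19.1% against 20.3% to 25.5% in Baseline-CRE. Leaving mitochondrially encoded genes out of the protein-coding denominator gave 0.849% in DOCA-CRE, 1.0002% in Baseline-CRE, 0.817% in DOCA-WT and 1.01% in Baseline-WT.

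**Figure D1:**
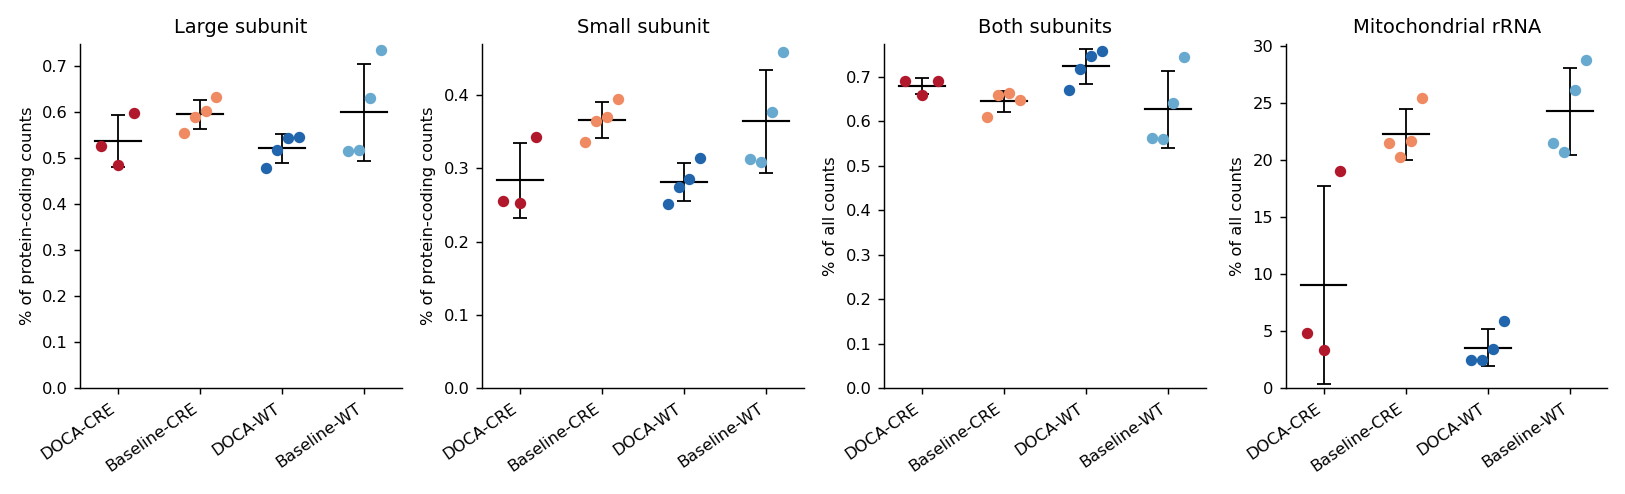
Share of counts per library in the 4 groups: large-subunit genes and small-subunit genes as a percent of protein-coding counts, both subunits as a percent of all counts, and mitochondrial ribosomal RNA as a percent of all counts. Points are libraries, lines are means and bars are SD. The shares of protein-coding counts sit lower in the DOCA groups, the share of all counts does not, and mitochondrial ribosomal RNA is at 2.42% to 5.84% in DOCA-WT, against 20.7% to 28.8% in Baseline-WT.

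The subunits did not have the same balance in every group. Large-subunit counts divided by small-subunit counts gave 2.06, 1.92 and 1.74 in DOCA-CRE and 1.90, 1.89, 1.90 and 1.74 in DOCA-WT. The ratio ran from 1.60 to 1.65 in Baseline-CRE and from 1.60 to 1.68 in Baseline-WT, below every DOCA library. Rps3 alone made up 1.75% to 2.56% of ribosomal protein counts in DOCA-CRE and 2.003% to 2.18% in DOCA-WT, against 3.61% to 4.83% in Baseline-CRE and 4.01% to 4.12% in Baseline-WT. With Rps3 left out, the ratio was 1.87 to 2.18 in DOCA-CRE, against 1.79 to 1.83 in Baseline-CRE, and 1.85 to 2.02 in DOCA-WT, against 1.80 to 1.88 in Baseline-WT, so that the DOCA-WT and Baseline-WT ranges overlapped. No test was made of these ratios.

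The first comparison asked how the members differ between WT mice on DOCA-salt and WT mice at baseline. In DOCA-WT, 29 of 78 members were lower than in Baseline-WT and 0 were higher, at an adjusted p of at most 0.05 (edgeR quasi-likelihood test, Benjamini-Hochberg adjustment over 14852 genes). By the same call 6.12% of all genes tested were lower and 5.48% higher. The calls held 15 of 47 large-subunit and 14 of 31 small-subunit members. The median log2 difference of the members was -0.35 (large -0.33, small -0.37), beside -0.00 over all genes tested, and it lay below 0 for 76 of 78 members. The exceptions were Rpl29 at 0.04 and Rpl3l at 0.26, neither of which passed the test. The 2 groups did not overlap for 36 members, all lower in DOCA-WT, where 9.74% of all genes were separate in that direction and 8.87% in the other. Only Rps3 was both called and at least 2-fold lower, a call that 0.707% of all genes met, and 0 members were 2-fold higher, beside 1.47% of all genes.

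**Figure D2:**
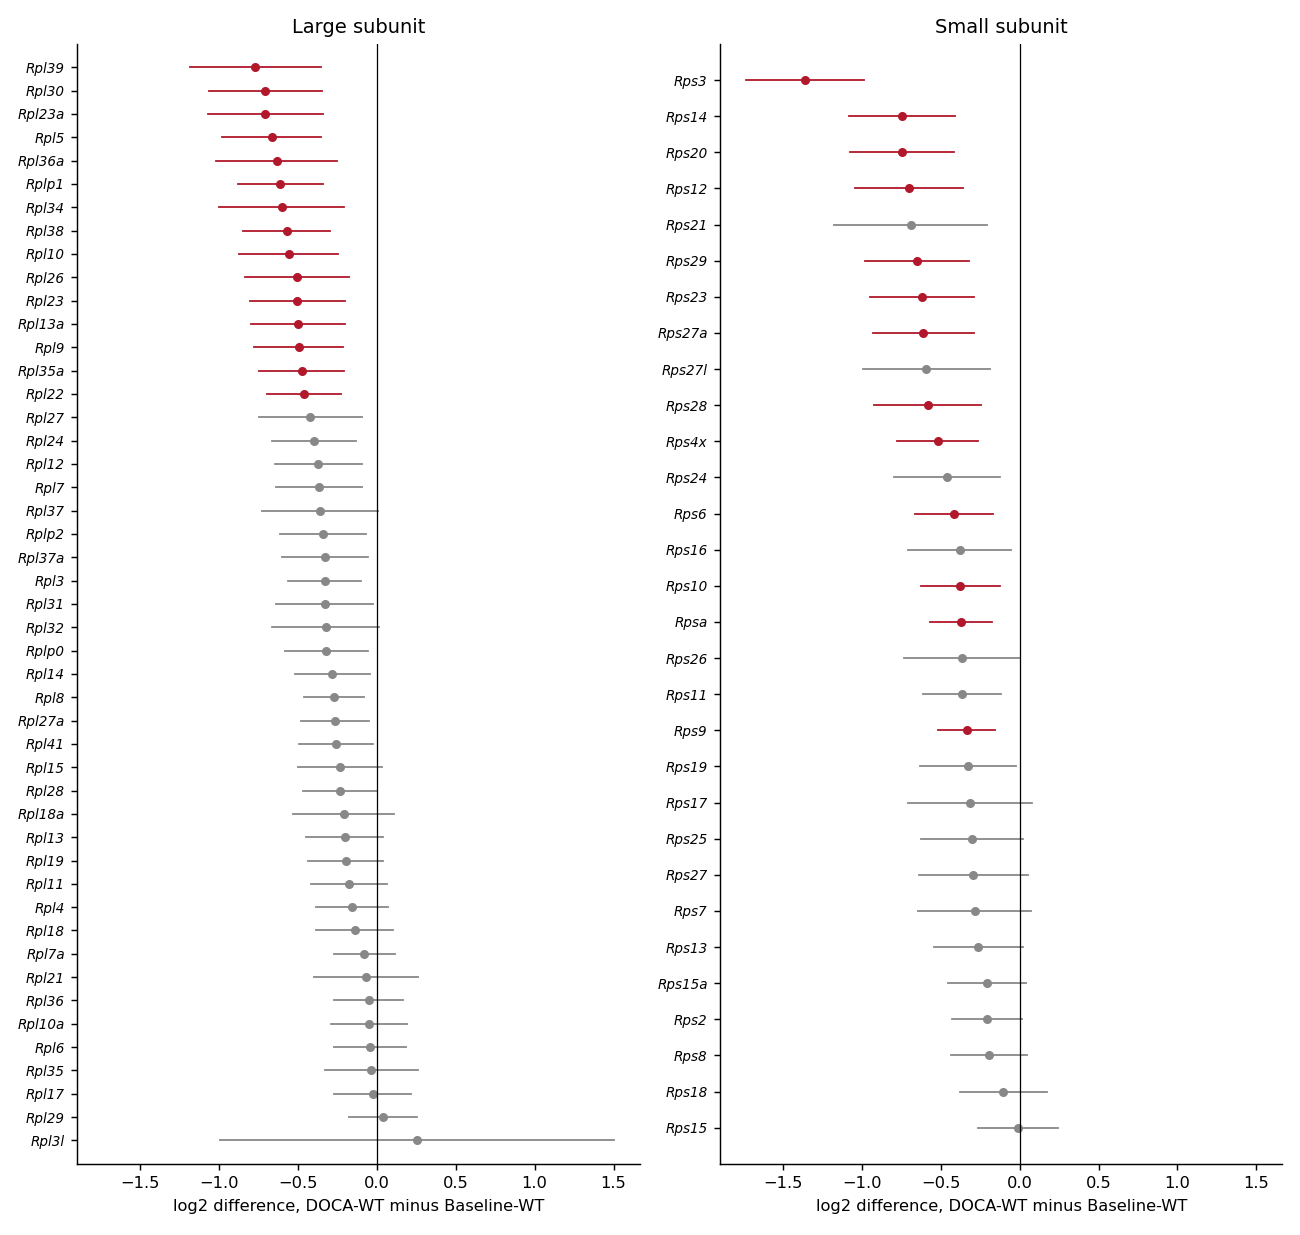
Log2 difference of 77 of the 78 members, DOCA-WT minus Baseline-WT, with large-subunit members on the left and small-subunit members on the right. Bars are 95% confidence intervals and red marks members with an adjusted p of at most 0.05. Only Rpl29 and Rpl3l lie above 0, and Rps3 lies apart at -1.36.

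Rps3, which lines the mRNA entry channel of the small subunit, had the lowest log2 difference of all members. It stood at 148, 152, 162 and 175 CPM in DOCA-WT, against 352, 355, 428 and 503 CPM in Baseline-WT. The groups lay far apart, with a log2 difference of -1.36 (SE 0.18, adjusted p = 0.000348, edgeR). This value is uncertain because of Snord15b, as described with the snoRNAs.

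Among the other small-subunit members, Rps20, Rps14, Rps12 and Rps4x were among those with the smallest p. Rps20, a protein of the subunit head, measured 54.3, 53.4, 57.1 and 66.7 CPM in DOCA-WT, against 84.8, 82.7, 104 and 117 CPM in Baseline-WT (log2 difference -0.74, SE 0.15, adjusted p = 0.0077, edgeR). Rps14, of the decoding platform, measured 46.5, 46.1, 52.0 and 67.3 CPM in DOCA-WT, against 76.9, 70.5, 95.2 and 113 CPM in Baseline-WT (-0.75, SE 0.16, adjusted p = 0.0085). For both genes DOCA-WT replicate 4 was the highest of its group and Baseline-WT replicate 4 the highest of its own, yet the groups did not overlap. Rps12, of the beak of the subunit, measured 45.001, 43.1, 48.2 and 60.3 CPM in DOCA-WT, against 67.7, 74.4, 84.97 and 92.7 CPM in Baseline-WT (-0.70, SE 0.16, adjusted p = 0.0128). Further small-subunit calls were Rps4x, Rps29, Rps27a, Rpsa, Rps23, Rps9, Rps28, Rps6 and Rps10. Rps6, the substrate of S6 kinases downstream of mTOR, had a log2 difference of -0.42 (adjusted p = 0.0321), and Rpsa, also known as the laminin receptor precursor, -0.37 (adjusted p = 0.0188).

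Among large-subunit members the acidic stalk gave an uneven picture. Rplp1 measured 183, 188, 211 and 220 CPM in DOCA-WT, against 267, 250, 306 and 402 CPM in Baseline-WT (log2 difference -0.61, SE 0.13, adjusted p = 0.0077, edgeR). Rplp2, its partner in the stalk dimer, stood at -0.34 (adjusted p = 0.0974), and Rplp0, the base of the stalk, at -0.32 (adjusted p = 0.103). Neither passed the test, although the groups of both were separate. Rpl5, which with Rpl11 carries a ribosomal RNA to the large subunit and can bind Mdm2, measured 108, 109, 115 and 132 CPM in DOCA-WT, against 155, 165, 196 and 221 CPM in Baseline-WT (-0.67, SE 0.15, adjusted p = 0.0102). Its partner Rpl11 had a log2 difference of -0.18 (adjusted p = 0.329). Rpl38, known in mice for its part in the translation of Hox mRNAs, measured 84.6, 80.9, 85.1 and 82.2 CPM in DOCA-WT, against 104, 108, 127 and 156 CPM in Baseline-WT (-0.57, SE 0.13, adjusted p = 0.0115). DOCA-WT values of Rpl38 varied little, at 83.2 ± 1.96 CPM (SD, n = 4), beside 124 ± 23.8 CPM in Baseline-WT (SD, n = 4).

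Rpl30 measured 36.3, 36.9, 44.9 and 53.03 CPM in DOCA-WT, against 59.4, 61.7, 80.5 and 77.8 CPM in Baseline-WT (log2 difference -0.71, SE 0.17, adjusted p = 0.0147, edgeR). Rpl22 measured 78.5, 77.6, 84.2 and 104 CPM in DOCA-WT, against 108, 105, 119 and 141 CPM in Baseline-WT (-0.46, SE 0.11, adjusted p = 0.0151). Rpl22 came closest to an overlap of these genes, since DOCA-WT replicate 4 lay just below Baseline-WT replicate 2. Rpl23a, at the mouth of the peptide exit tunnel where signal recognition particle docks, measured 73.4, 81.3, 70.3 and 67.8 CPM in DOCA-WT, against 107, 100, 124 and 147 CPM in Baseline-WT (-0.71, SE 0.17, adjusted p = 0.0168). The remaining large-subunit calls were Rpl39, Rpl9, Rpl10, Rpl35a, Rpl23, Rpl13a, Rpl36a, Rpl26 and Rpl34. For each member described here by its values in both groups, the exact permutation test (2-sided) gave p = 0.0286, and 4 against 4 libraries allow none smaller.

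**Figure D3:**
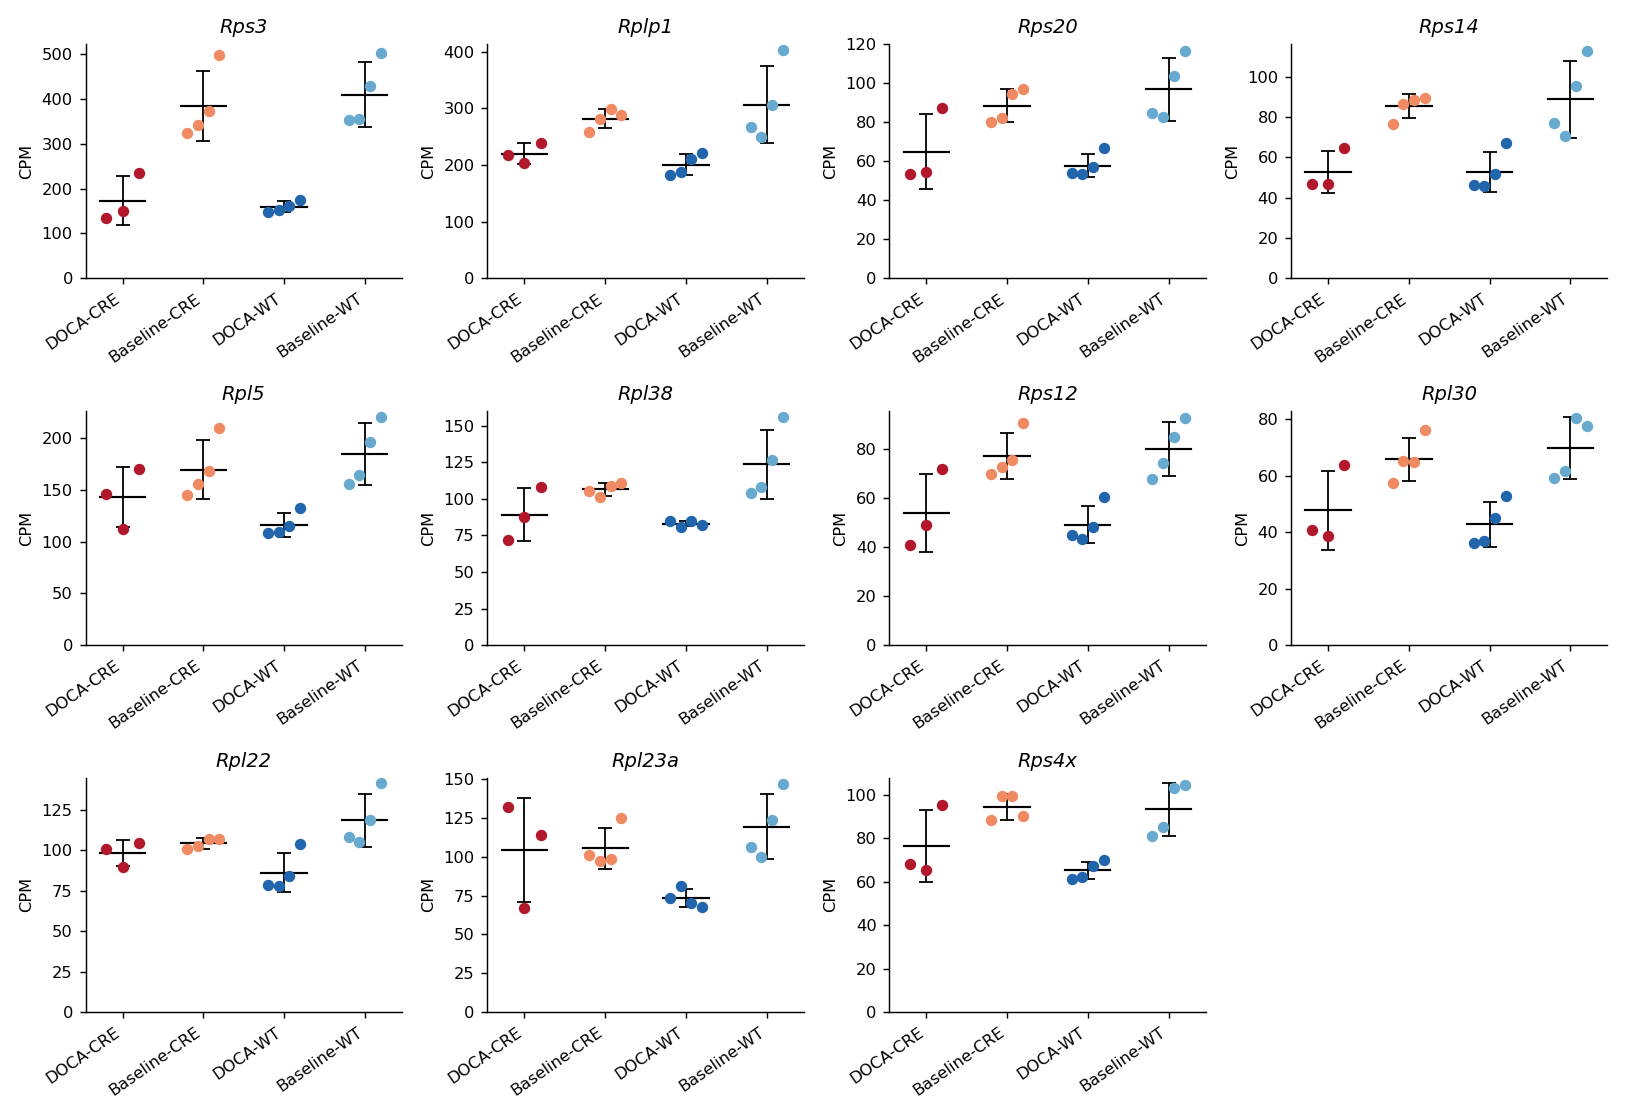
CPM per library of members that were among those with the smallest p in the WT comparison, in the order DOCA-CRE, Baseline-CRE, DOCA-WT, Baseline-WT. Points are libraries, lines are means and bars are SD. DOCA-WT lies below Baseline-WT without overlap in every panel, for example 54.3, 53.4, 57.1 and 66.7 CPM against 84.8, 82.7, 104 and 117 CPM for Rps20, and the highest DOCA-CRE value often nears or passes the Baseline-CRE values.

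All 4 X-linked members were lower in DOCA-WT. Rpl39, which lines the peptide exit tunnel, measured 18.7, 17.9, 17.0 and 24.3 CPM in DOCA-WT, against 28.2, 28.8, 33.9 and 42.0 CPM in Baseline-WT (log2 difference -0.77, SE 0.20, adjusted p = 0.0202, edgeR). Rpl10, which joins the large subunit late in its maturation, stood at -0.56 (adjusted p = 0.0252), Rpl36a at -0.63 (adjusted p = 0.0339) and Rps4x at -0.52 (adjusted p = 0.0131). Each of these groups held 1 library with a male pattern. With the sex pattern as a term in the fit, 27 members were lower, beside 5.50% of all genes. Members of the paralogous pairs Rps27 with Rps27l and Rpl3 with Rpl3l were not called: Rps27 was at -0.29 (adjusted p = 0.249) and Rps27l at -0.59 (adjusted p = 0.0558), while Rpl3 was at -0.33 (adjusted p = 0.0627). At the other end, Rpl36 (-0.05), Rpl35 (-0.03), Rpl17 (-0.03), Rpl6 (-0.04) and Rps15 (-0.01) differed by less than their SE.

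The count of calls leaned on single libraries more than the direction did. It was 16 without Baseline-WT replicate 3, 15 without Baseline-WT replicate 4, 15 without DOCA-WT replicate 2 and 13 without DOCA-WT replicate 3, fits in which 4.32%, 4.76%, 3.51% and 2.75% of all genes were lower, so the background was smaller as well. The median stayed between -0.41 and -0.26 over all 15 left-out libraries. Rps20, Rplp1, Rps14, Rpl5, Rpl38, Rps12, Rps29 and Rpl30 kept their calls under all 30 alternative fits, which do not include the 2-fold limit. Rps10 lost its call under 21 of these fits and Rpl26 and Rpl34 under 17 each. Mitochondrial ribosomal RNA, snoRNA levels and several cell type markers, among them serotonergic and red blood cell genes, moved between the same groups. Their part in these differences was not tested.

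The second comparison put the same question to PRR RVLM-Null mice. In DOCA-CRE, 4 of 78 members (5.13%) were lower than in Baseline-CRE and 0 were higher, where 3.77% of all genes were lower and 2.69% higher (edgeR). The share of members lower was thus close to that of all genes. The 4 members included Rps3, Rpl10 and Rps14 and were 1 of 47 large-subunit and 3 of 31 small-subunit members. All 4 were also lower in the WT comparison, which is 100% of this list and 13.8% of the other. The median log2 difference was -0.22 over the members (large -0.14, small -0.32), beside 0.02 over all genes, and 70 members lay below 0. Groups were separate for 19 members, all lower in DOCA-CRE, where 11.1% of all genes were separate in that direction and 9.38% in the other. Rps3 alone was called and at least 2-fold lower, beside 0.444% of all genes, and 0 members were 2-fold higher, beside 1.14%.

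Rps14 measured 46.9, 47.0 and 64.9 CPM in DOCA-CRE, against 76.6, 86.8, 88.4 and 89.8 CPM in Baseline-CRE (log2 difference -0.69, SE 0.17, adjusted p = 0.0301, edgeR). Rpl10 measured 42.3, 67.1 and 79.7 CPM in DOCA-CRE, against 94.3, 93.0, 110 and 101 CPM in Baseline-CRE (-0.66, SE 0.16, adjusted p = 0.0283). In each gene the library labelled DOCA-CRE replicate 3 was the closest to baseline, and for Rpl10 the DOCA-CRE libraries also differed widely from each other. Rps3 measured 135, 150 and 235 CPM in DOCA-CRE, against 324, 341, 373 and 497 CPM in Baseline-CRE (-1.15, SE 0.19, adjusted p = 0.0063). The exact permutation test gave p = 0.0286 for each of these genes, the smallest that 3 against 4 libraries allow. Of the stalk and receptor genes, Rplp1 was at -0.36 (adjusted p = 0.119), Rpsa at -0.22 (adjusted p = 0.178), Rplp0 at -0.30 (adjusted p = 0.168) and Rplp2 at 0.09 (adjusted p = 0.727). The X-linked members other than Rpl10 lay at -0.31 (Rps4x), -0.22 (Rpl39) and -0.16 (Rpl36a) and were not called, nor were Rpl3 (-0.39), Rpl3l (0.71), Rps27 (-0.35) and Rps27l (-0.20). Rplp1 was separate all the same, at 217, 203 and 239 CPM in DOCA-CRE, against 259, 281, 298 and 288 CPM in Baseline-CRE.

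The library labelled DOCA-CRE replicate 3, which also had 19.1% mitochondrial ribosomal RNA and an Atp6ap2 level like that of WT mice, weighed on this comparison. In it 89.7% of the members lay above the mean of their group, beside 23.1% in DOCA-CRE replicate 1 and 26.9% in replicate 2. Without it, 21 members were lower (8 large, 13 small), of which 13 were also lower in the WT comparison, and the median was -0.31 with 72 members below 0. In that fit 6.46% of all genes were lower. The count was 1 without DOCA-CRE replicate 1, 2 without Baseline-CRE replicate 3, 1 without Baseline-CRE replicate 4 and 8 without Baseline-WT replicate 4, where 1.28%, 1.64%, 1.10% and 4.08% of all genes were lower. A count of 1 of 78 is close to the background of its fit. It was 0 when only the 2 groups compared entered the fit, where 0.430% of all genes were lower. DESeq2 called 9 members lower (6.12% of all genes) and the edgeR likelihood ratio test 7 (4.81%).

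Side by side, the DOCA-salt differences in the genotypes ran in the same direction for most members. Of 78 members, 70 had a log2 difference below 0 in both comparisons. Pearson's r of the 2 differences was 0.72 across members (Spearman's rho 0.61), and 0.65 over the 77 members other than Rps3, beside 0.35 across all genes. This is a description across genes, which are not independent replicates, and the points share their libraries, depth and cohort. Rpl23a departed most from equality, at -0.02 in PRR RVLM-Null mice beside -0.71 in WT mice, followed by Rpl39 (-0.22 beside -0.77) and Rpl36a (-0.16 beside -0.63).

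**Figure D4:**
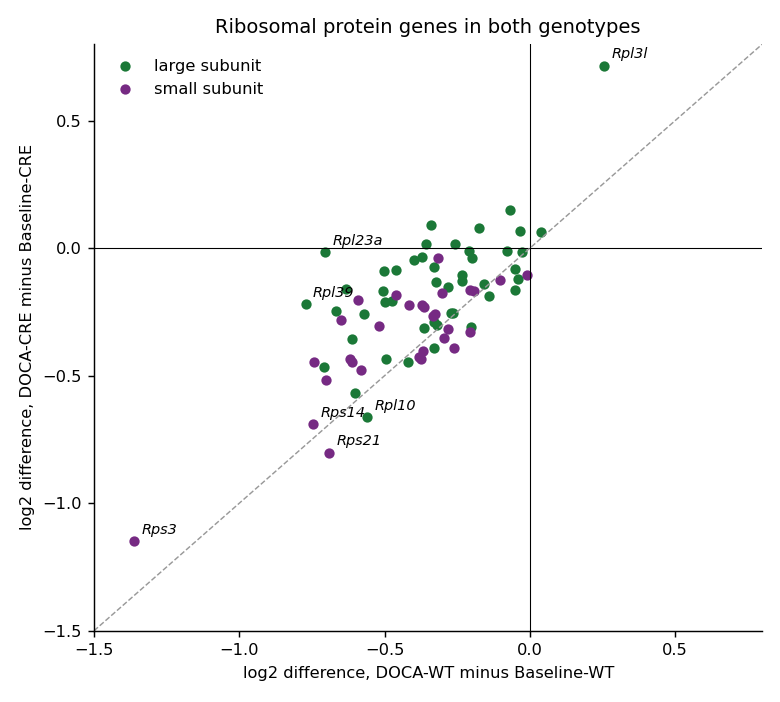
Each point is 1 member, with 77 of the 78 shown: log2 difference DOCA-WT minus Baseline-WT on the horizontal axis and DOCA-CRE minus Baseline-CRE on the vertical axis, with large-subunit and small-subunit members marked apart and a dashed line of equality. Most points fall below 0 on both axes, and Rps3 lies apart at -1.36 and -1.15.

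The difference between the DOCA-salt differences was tested directly as an interaction. By this test 0 members differed in either direction in edgeR, and 0 did in limma voom, DESeq2 or a likelihood ratio test, where edgeR called 0.478% of all genes lower (0.323% at least 2-fold) and 0.0337% higher. At an unadjusted p under 0.05 there were 3: Rpl23a at 0.69 (SE 0.25, adjusted p = 0.188), Rplp2 at 0.43 (SE 0.19, adjusted p = 0.264) and Rpl22 at 0.38 (SE 0.16, adjusted p = 0.254). This count is not read as a result about the members. The median was 0.13, beside 0.04 over all genes. The 4 calls in PRR RVLM-Null mice beside 29 in WT mice therefore do not show that any member responded differently in the genotypes.

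Within the DOCA cohort, DOCA-CRE was compared with DOCA-WT, the contrast that holds DOCA-salt constant. The punches were not alike in the serotonergic marker Tph2, at 6.69, 6.80 and 48.9 CPM in DOCA-CRE, against 63.1 to 170 CPM in DOCA-WT. The part of such marker differences in this contrast was not tested. No member was called in either direction (0 higher, 0 lower in edgeR, limma voom, DESeq2 and a likelihood ratio test), where edgeR called 0.0135% of all genes lower and 0.00673% higher. Groups were separate for 0 members, beside 4.84% of all genes lower and 3.89% higher in DOCA-CRE. The median was 0.06, and 51 of 78 members were above 0. At an unadjusted p under 0.05 there were 3, all of the large subunit and all above 0: Rpl23a, Rpl23 and Rplp2. They are named for their p alone, and their number is not read as a result. Rpl23a measured 132, 67.0 and 114 CPM in DOCA-CRE, against 73.4, 81.3, 70.3 and 67.8 CPM in DOCA-WT (log2 difference 0.51, SE 0.18, adjusted p = 0.229). DOCA-CRE replicate 2 lay below all DOCA-WT libraries and the other DOCA-CRE libraries above them, so the groups overlapped. Rplp2 measured 179, 136 and 120 CPM in DOCA-CRE, against 123, 128, 125 and 96.5 CPM in DOCA-WT (0.29, adjusted p = 0.346), and Rpl23 116, 91.2 and 147 CPM in DOCA-CRE, against 87.2, 84.3, 91.7 and 112 CPM in DOCA-WT (0.34, adjusted p = 0.328). Among small-subunit members the smallest p belonged to Rps4x (0.23, adjusted p = 0.445), Rps29 (0.29, adjusted p = 0.456) and Rps6 (0.18, adjusted p = 0.538). Rplp1 (0.13), Rplp0 (-0.02), Rpsa (0.08) and the X-linked Rpl10 (-0.11), Rpl39 (0.17) and Rpl36a (0.34) were not called either, nor were the paralogues Rps27l (-0.10) and Rpl3l (0.46).

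Before DOCA-salt, Baseline-CRE was compared with Baseline-WT. Atp6ap2 overlapped between these groups, so the comparison is of viruses and not of mice with a measured loss of PRR. No member was called (0 higher, 0 lower in edgeR, limma voom, DESeq2 and a likelihood ratio test), nor was any of all genes tested with edgeR (0%). The median was -0.07, with 66 of 78 members below 0. Rps27l alone had an unadjusted p under 0.05, at 6.24, 5.88, 6.28 and 7.17 CPM in Baseline-CRE, against 7.34, 10.3, 7.79 and 10.4 CPM in Baseline-WT (log2 difference -0.49, SE 0.19, adjusted p = 0.44). Its groups were separate, which 4.39% of all genes were in that direction and 3.89% in the other. Next came Rpl39 (-0.39, adjusted p = 0.517) and Rpl12, at the base of the stalk (-0.26, adjusted p = 0.519). The stalk genes lay at -0.04 (Rplp0), -0.12 (Rplp1) and -0.14 (Rplp2), Rpsa at -0.07, and the other X-linked members at -0.01 (Rpl10), 0.02 (Rps4x) and -0.13 (Rpl36a). In both comparisons of genotypes the medians were smaller than the SD of the members' mean level between replicates, 0.150 on the log2 scale, and leaving out single libraries moved them across 0, from -0.03 to 0.12 on DOCA-salt and from -0.14 to 0.03 at baseline.

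Members varied together within groups. The median Pearson r between 2 members, of their deviations from group means over the 15 libraries, was 0.60. In Baseline-WT replicate 4, 93.6% of the members lay above their group mean, and in Baseline-WT replicate 1 0% did, while the same share over all genes ran from 46.9% to 53.8% in every library. The median coefficient of variation was 19.3% in DOCA-CRE, 10.9% in DOCA-WT, 7.09% in Baseline-CRE and 16.3% in Baseline-WT, so the Baseline-CRE libraries resembled each other most. The log2 difference in WT mice had no relation to the annotated exon length of the gene across members (Spearman's rho -0.00) and little to the mean CPM (0.09). That length is not the length of the mRNA. Members are short, with a median exon length of 1775.5 bases against 4537 over all genes. A fit with an offset that removes trends with length in each library called 48 members lower, along with 13.3% of all genes (1968 lower, 576 higher).

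snoRNAs inside the members had larger log2 differences between cohorts than the mRNAs. Of the 56 snoRNA genes, 31 passed the filter when all gene biotypes were fitted. A gene could pass through baseline libraries alone, as Snora70 did, at 0.113 to 0.492 CPM in DOCA-CRE and 0.0410 to 0.359 CPM in DOCA-WT. For such genes the filter favors a lower DOCA level, and the size of the log2 difference rests on few counts. The counts of snoRNA genes given next carry this limit. In DOCA-WT 28 of the 31 were lower than in Baseline-WT and 0 higher, with a median log2 difference of -4.12 (edgeR, 5.73% of all genes lower in this fit). In DOCA-CRE 23 were lower than in Baseline-CRE and 0 higher, with a median of -3.54 (4.15% of all genes lower). The summed level of all 56, which does not depend on the filter, was 24.7, 18.6 and 68.2 CPM in DOCA-CRE and 17.8 to 33.4 CPM in DOCA-WT. At baseline the sum was 237 to 672 CPM in Baseline-CRE and 322 to 459 CPM in Baseline-WT. The library labelled DOCA-CRE replicate 3 was the highest of the DOCA libraries and still below every baseline library. Those inside members were not set apart from other snoRNAs, since 177 of all 223 snoRNA and small Cajal body RNA genes past the filter were lower in DOCA-WT (median -3.79) and 135 in DOCA-CRE (median -3.28). Snora21 had the lowest difference in DOCA-WT, at -7.34, with 0.125 to 0.349 CPM in DOCA-WT, against 31.04 to 54.6 CPM in Baseline-WT. Snora33 in Rps12 (-0.83), Snord42b in Rpl23a (-0.26) and Snora65 in Rpl12 (0.17) were the ones not called.

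Members with and without a snoRNA inside gave much the same share of calls. Of 29 members with a snoRNA gene inside, 11 were lower in DOCA-WT (median -0.36), and of 49 without, 18 were (median -0.33). The other genes tested still include the ribosomal protein genes outside the naming rule. Among them 28 of 230 genes with a snoRNA inside were lower (12.2%, median -0.09), beside 851 of 14528 without one (5.86%, median 0.00).

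Rps3 was the member whose count was tied most closely to a snoRNA. Snord15b measured 4.35, 3.98 and 33.1 CPM in DOCA-CRE and 3.12, 2.96, 4.34 and 8.59 CPM in DOCA-WT, against 136, 143, 162 and 286 CPM in Baseline-CRE and 165, 178, 222 and 255 CPM in Baseline-WT. Its counts equalled 2.66% to 14.1% of those of Rps3 in DOCA-CRE and 1.95% to 4.90% in DOCA-WT, but 41.8% to 57.5% in Baseline-CRE and 46.9% to 51.9% in Baseline-WT. Whether a read in Snord15b was also counted for Rps3 is not given in the sources used here. If each were, Rps3 without them would stand at 130, 146 and 202 CPM in DOCA-CRE, against 189, 198, 210 and 211 CPM in Baseline-CRE. In WT mice it would stand at 145, 149, 157 and 167 CPM in DOCA-WT, against 187, 177, 206 and 248 CPM in Baseline-WT. With the counts of all 27 snoRNA genes that lie wholly in exons of 23 members subtracted, an alternative chosen after seeing the data, the log2 difference of Rps3 was -0.40 in WT mice (SE 0.13, adjusted p = 0.0537, edgeR) and -0.34 in PRR RVLM-Null mice (SE 0.14, adjusted p = 0.137). Counted from the lowest of 78, the rank of Rps3 was then 30 in WT mice and 21 in PRR RVLM-Null mice, where it had been 1 in both, and neither call held. In the same fit 28 members were lower in DOCA-WT and 3 in DOCA-CRE, where 6.11% and 3.76% of all genes were lower. The 3 of 78 in DOCA-CRE are close to that background. In the other hosts, the snoRNA counts equalled at most 17.9% (Rpl32), 13.6% (Rpl5) and 11.04% (Rps12) of the host's counts in any library.

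**Figure D5:**
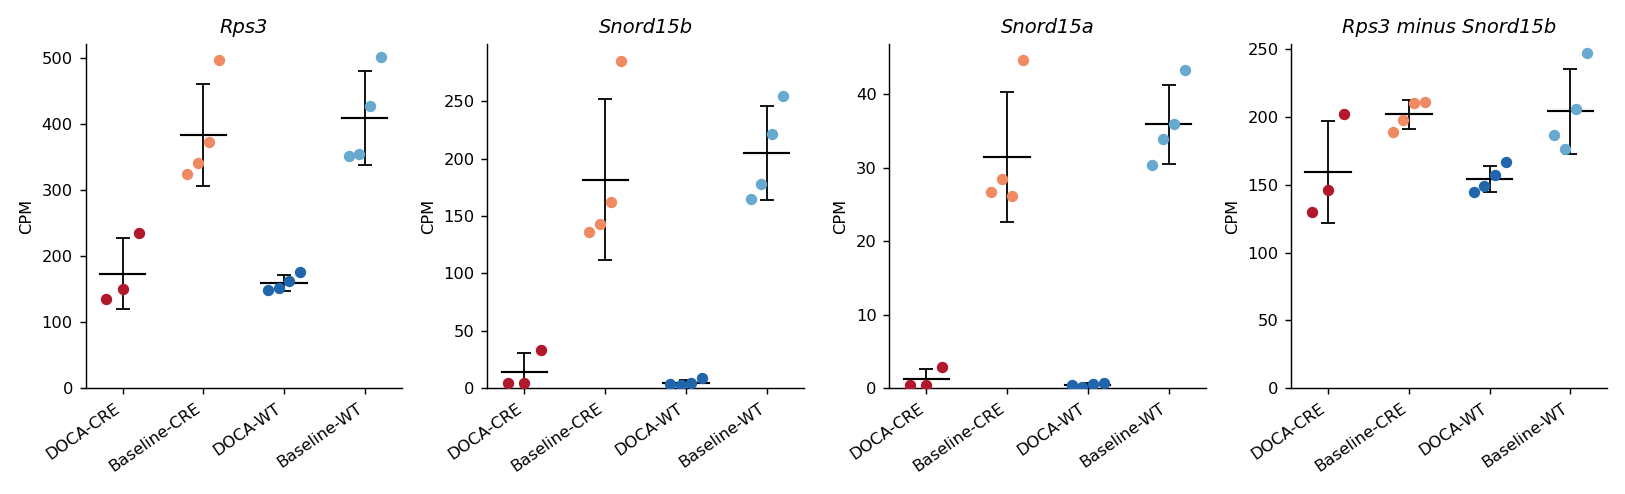
CPM per library of Rps3, Snord15b, Snord15a and Rps3 less the counts of Snord15b, in the order DOCA-CRE, Baseline-CRE, DOCA-WT, Baseline-WT. Points are libraries, lines are means and bars are SD. Snord15b is at 2.96 to 8.59 CPM in DOCA-WT, against 165 to 255 CPM in Baseline-WT, and the gap between the groups of Rps3 is much narrower in the last panel.

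Promoters were read for the 60 members in the RefSeq table (72 promoters of 250 bases before and 50 from the start on). The motif CTTCCG, the core bound by ETS-family factors, on either strand, was in the promoters of 68.3% of these members and of 18.8% of 27025 genes. CTTTCC, a pyrimidine stretch like that of the TOP motif, on either strand, was in 53.3% of members and 29.3% of all genes. AAGATGGC, the YY1 motif, was in 8.33% of members and 3.19% of all genes, and TATAAA, the TATA box, in 10% and 15.7%, each on either strand. Matches of different motifs were counted separately and may share bases. Neither of the commoner motifs went with the DOCA-salt difference: 13 of 40 tested members with CTTCCG were lower in DOCA-WT (median -0.35), as were 8 of 18 without it (-0.38), and 11 of 30 with CTTTCC (-0.33), as were 10 of 28 without it (-0.37). A pair of promoters is shown to set a called member beside one that did not differ, Rpl38 (-0.57) and Rpl35 (-0.03), each with 45 bases before the RefSeq start and 15 from it on. They lie at chr11:114668535-114668594 on the plus strand and chr2:39005117-39005176 on the minus strand of GRCm38.p6, read 5′ to 3′, with matches to CTTTCC or, on the other strand, to the ETS core in capitals.
Rpl38: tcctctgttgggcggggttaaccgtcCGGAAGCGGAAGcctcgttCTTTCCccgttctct
Rpl35: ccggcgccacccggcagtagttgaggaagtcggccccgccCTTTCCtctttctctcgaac

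Other genes of translation were read from lists, to set the members beside the rest of their pathway. Of 8 ribosomal protein genes whose symbols do not meet the naming rule, Rps3a1 was lower in DOCA-WT (log2 difference -0.56, adjusted p = 0.0453, edgeR), at 84.1, 91.9, 96.3 and 113 CPM in DOCA-WT, against 118, 121, 146 and 184 CPM in Baseline-WT. Of 36 initiation factors, 7 were lower and 0 higher in DOCA-WT, beside 6.12% and 5.48% of all genes. Eif4a1, the RNA helicase that unwinds mRNA leaders, was separate in both genotypes, at 89.8, 88.6, 97.4 and 95.9 CPM in DOCA-WT, against 162, 154, 195 and 199 CPM in Baseline-WT (-0.93, SE 0.12, adjusted p = 0.000347). In PRR RVLM-Null mice it measured 99.0, 85.03 and 99.98 CPM in DOCA-CRE, against 134, 138, 149 and 194 CPM in Baseline-CRE (-0.70, adjusted p = 0.0098). Subunits of the initiation factor that holds the small ribosomal subunit were also lower in DOCA-WT, Eif3e (-0.72, adjusted p = 0.0044), Eif3i (-0.46, adjusted p = 0.0134) and Eif3m (-0.51, adjusted p = 0.0165). Of 14 elongation and termination factors, 4 were lower and 0 higher in DOCA-WT: Etf1, Eef1b2, Eif5a2 and Eif5a, with log2 differences between -0.45 and -0.25. Of 16 other mRNAs with a TOP motif, 3 were lower and 0 higher, beside 6.12% and 5.48% of all genes, and these were Tpt1 with Eif3e and Eef1b2, both already counted among the factors above. Tpt1, which encodes the translationally controlled tumor protein, measured 270, 269, 255 and 256 CPM in DOCA-WT, against 376, 357, 381 and 476 CPM in Baseline-WT (-0.60, SE 0.10, adjusted p = 0.0024). In DOCA-CRE, 2 initiation factors (Eif4a1 and Eif4a2) and 1 elongation factor, Eef1a1 (-0.59, adjusted p = 0.0476), were lower. Eef1a1 is also the 1 TOP mRNA called, and 0 passed in the other direction. Over all genes 3.77% were lower and 2.69% higher in DOCA-CRE.

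Lists of genes for the mitochondrial ribosome, ribosome assembly and its regulation held few calls, and their difference from the members was not tested. Over all genes, 6.12% were lower and 5.48% higher in DOCA-WT, and 3.77% lower and 2.69% higher in DOCA-CRE. Counts of 1 or 2 calls in these lists are not read beyond those shares. Of 78 mitochondrial ribosomal protein genes, 0 were lower and 2 higher in DOCA-WT, Mrpl49 (0.31, adjusted p = 0.0298) and Mrpl41 (0.50, adjusted p = 0.0445), and their median was -0.01, beside -0.35 for the same number of cytosolic members. In DOCA-CRE 0 were lower and 2 higher. Of 30 ribosome assembly factors and snoRNA-binding proteins, 0 were called in either direction in DOCA-WT with edgeR. An unadjusted p under 0.05 was found for 4 of them there, beside 4168 of all 14852 genes. In DOCA-CRE 1 was lower, the export adapter Nmd3 (-0.46, adjusted p = 0.039). Of 14 RNA polymerase I genes and cofactors, Twistnb was lower (-0.46, adjusted p = 0.0062) and Cd3eap higher (0.53, adjusted p = 0.0329) in DOCA-WT. Of 17 regulators of TOP mRNAs and mTOR signaling, Tsc1, an inhibitor of mTOR, was higher (0.38, adjusted p = 0.0264), Rps6kb2, an S6 kinase, was higher (0.57, adjusted p = 0.047), and Larp4 was lower (-0.36, adjusted p = 0.0316). Rps6kb2 was higher in DOCA-CRE too (0.84, adjusted p = 0.0193), and the mTOR inhibitor Deptor was lower there (-0.57, adjusted p = 0.0423). Of 10 p53 response genes, Ccng1 was lower in DOCA-WT (-0.59, adjusted p = 0.0214) and 0 were called in DOCA-CRE. In DOCA-CRE 2 of them had an unadjusted p under 0.05, beside 3826 of all 14852 genes.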

How the data were processed

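RNA was extracted with TRIzol from RVLM punches, prepared with a low-input stranded SMART-seq kit and sequenced in pairs of 100 bases. The authors checked reads with FastQC and aligned them with STAR within MAPR-Seq 3.0 to GRCm38.p6 with Gencode vM23. Which counting program was used is not given in the sources used here. The deposited table holds raw counts per gene, not normalized, for 15 libraries, with 0 columns left unmapped. The authors' tables of differential expression hold their fold changes and adjusted p-values and were not used. 

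Counts of protein-coding genes above 1 CPM in at least 1 library (14852 of 21926) were scaled by TMM factors and fitted by edgeR 4.0.16 quasi-likelihood in R 4.3.3, with 1 term per group over all 15 libraries. Calls were made at 0.05 on Benjamini-Hochberg p-values, adjusted across every gene in the fit. The exact permutation test used log2(CPM + 1). Levels are TMM-scaled CPM, and precision rests on 19053970 to 30504796 counts per library and a common biological coefficient of variation of 0.192. snoRNA positions are from Gencode vM21, which held 99.5% of the genes. Replicates differed by more than sampling noise (chi-square over degrees of freedom at least 5.48). The code was tested on simulated data.

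The members and lists were chosen with earlier results of these data known. Named genes were, per comparison and subunit, the 6 called members with the smallest p in each direction, or the 3 with the smallest p where none was called, with the stalk genes, Rpsa, X-linked and paralogous members, the highest and lowest members per kilobase of exon, and up to 4 genes per list. Rpl4 was named for its CPM after the values were seen. Snora21, Rpl35, Rpl38's promoter, Rpl11, Rpl17, Rpl6 and Rps15 were chosen after their values were seen. Of the members, 1 is not reported here by name.

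Alternatives were limma 3.58.1 voom, DESeq2 1.42.0, a likelihood ratio test, other factors and filters, a fit of all biotypes, a fit of only the groups compared, a replicate block, the sex pattern as a term, a length offset, a 2-fold limit, other denominators, leaving out each library and, chosen after seeing the data, subtraction of exon-embedded snoRNA counts.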

Additional observations from a re-analysis of the deposited data

Results flagged for a closer look

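Within groups of 4 libraries, 1 library lay far from the other 3 in 6 of the 87 groups of values examined (by Dixon's test of the gap over the range), where chance alone would give about 1 in 20. Baseline-CRE replicate 4 stood apart for 4 members: Rpl23a at 125 CPM (others 97.4 to 101 CPM), Rpl36a at 60.5 CPM (others 45.7 to 47.8 CPM), Rpl39 at 32.4 CPM (others 22.5 to 23.7 CPM) and Rplp2 at 142 CPM (others 134 to 134 CPM, so that the gap was large only beside their close agreement). DOCA-WT replicate 4 stood apart in opposite directions for a pair of members, higher for Rpl36a at 41.4 CPM (others 32.9 to 34.2 CPM) and lower for Rplp2 at 96.5 CPM (others 123 to 128 CPM). Baseline-CRE replicate 4 also had the highest summed level of snoRNAs inside members, 672 CPM, beside 237 to 295 CPM in the other Baseline-CRE libraries.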

How the results depend on the processing

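The median log2 difference of the members stayed below 0 in both DOCA-salt comparisons under every alternative, from -0.45 to -0.23 in WT and from -0.26 to -0.18 in PRR RVLM-Null mice. Fits without scaling factors moved the median of all genes in WT mice to 0.12 (416 of all genes lower and 1588 higher, against 909 and 814) and a length offset moved it to -0.11, and they called 12 and 48 members lower, against 29. Without a filter it was 0.17 in PRR RVLM-Null and 0.12 in WT mice. A 2-fold limit left 1 member lower in each comparison. The DOCA-CRE comparison had 4 members lower. There DESeq2 called 9 (6.12% of all genes lower), the likelihood ratio test 7 (4.81%) and the length offset 10 (3.76%). The fit of only the groups compared called 0 (0.430%). Leaving out single libraries gave 13 to 37 members lower in DOCA-WT, with medians from -0.41 to -0.26. These fits had 2.75% to 7.44% of all genes lower. For DOCA-CRE the counts were 1 to 21, with medians from -0.31 to -0.18, beside 1.10% to 6.46% of all genes. With all counts as the denominator, mean shares were 0.680% in DOCA-CRE, 0.645% in Baseline-CRE, 0.723% in DOCA-WT and 0.627% in Baseline-WT. The cause of these shifts was not tested. Replicate numbers did not pair libraries (8 of 21 same-number pairs had a correlation above 0.1). The replicate block called 35 members lower in DOCA-WT (median -0.34), beside 5.64% of all genes. In DOCA-CRE it called 4 (median -0.18), beside 2.59% of all genes. No comparison of genotypes, nor the interaction, called a member under any alternative. A small group of 3, overlapping snoRNA genes, and the shared cohort of baseline libraries limit the comparisons, and intervals cover the spread between these libraries only.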

Other observations

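Outside the members, the 5 genes whose level over the 15 libraries was most like the members' mean were Pfdn5 (Pearson r 0.95), Rps3a1 (0.95), Eif3e (0.94), Eif3i (0.94) and Rap1a (0.93), a description over libraries that also differ by cohort. Pfdn5, a subunit of the prefoldin chaperone, measured 72.7, 79.3, 78.0 and 85.1 CPM in DOCA-WT, against 98.6, 98.6, 109 and 161 CPM in Baseline-WT.

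The 290 pseudogenes named after ribosomal protein genes summed to 270, 253 and 289 CPM in DOCA-CRE and 230 to 250 CPM in DOCA-WT, against 276 to 291 CPM in Baseline-CRE and 249 to 367 CPM in Baseline-WT. Reads shared between a member and its pseudogenes cannot be told apart in gene counts.

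Rpl36al, a paralogue of Rpl36a that the naming rule leaves out, measured 43.9, 32.1 and 49.9 CPM in DOCA-CRE, against 45.5, 37.4, 551 and 737 CPM in Baseline-CRE, and 27.8 to 39.7 CPM in DOCA-WT, against 35.2 to 62.2 CPM in Baseline-WT. It was called lower in DOCA-CRE than in Baseline-CRE (log2 difference -3.03, adjusted p = 0.0353, edgeR), with 2 of the 4 Baseline-CRE libraries far above all the others. Baseline-CRE replicates 1 and 2 lay within the range of DOCA-CRE, and the source of the high values was not tested.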
